A study of Mus musculus with 71 samples.

Results

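The genes described here are 10 genes picked under the name of homeodomain-dependent activated genes of Pax5. Their RNA in pro-B cells is low once the partial homeodomain or the last C-terminal domain of Pax5 is deleted: *Enpep*, *Grb7*, *Col5a3*, *Spsb4*, *Hdac11*, *Cldn4*, *Slc52a3*, *Tmem132e*, *Dnase1l3* and *Pde9a*. They were chosen by their RNA levels in *Pax5* ∆HD/∆HD, ∆OP,HD/∆OP,HD, ∆CRD2/− and ∆CRD2/∆CRD2 pro-B cells against *Pax5* +/+ pro-B cells, so their levels in those genotypes are given as a description without a test. All 10 were found by symbol among the 25579 genes of the mm10 tables and also in the mm9 tables of lymphoid progenitors. For 8 samples, both ∆CRD2/∆CRD2 samples and the 6 of the Prd experiment, the tables name no genes and were read in the row order of the others. Gene lengths derived from the counts and TPM of *Pax5* +/+ replicate 3 and of a +/∆ sample were in 1 ratio, within 1e-06, for 14405 of 14405 genes.

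Pax5 is the transcription factor that commits lymphoid progenitors to the B cell lineage. It binds DNA through its N-terminal paired domain, carries in its middle an octapeptide (OP), which recruits Groucho corepressors, and a partial homeodomain (HD) that contains only the first helix of a complete homeodomain, and ends in the C-terminal regulatory domains CRD1 and CRD2, which overlap the earlier defined transactivation and inhibitory domains. A target gene that is activated by Pax5 may therefore need any of these parts, and mice that lack 1 part at a time allow each gene to be read against each part.

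Sequencing of poly(A) RNA was done on cells sorted from C57BL/6 mice, for which the labels give no age. Among pro-B cells there were 5 samples of *Pax5* +/+ mice and 2 samples for each of 9 mutant genotypes: homozygous ∆OP, ∆HD, ∆OP,HD, ∆CRD1, ∆CRD2 and ∆CRD1,2 (2 copies of the changed allele), and hemizygous ∆CRD1/−, ∆CRD2/− and ∆CRD1,2/−, in which the other allele is a null allele. *Pax5* ∆/∆ progenitors (2 samples) came from *Vav*-Cre *Pax5* fl/fl mice, in which Cre is expressed throughout the haematopoietic system. A separate experiment, called the Prd experiment here, had 2 samples each of *Pax5* +/∆ pro-B cells (*Vav*-Cre *Pax5* fl/+), *Pax5* Prd/∆ progenitors (*Vav*-Cre *Pax5* Prd/fl, whose only Pax5 protein is the paired domain) and *Pax5* ∆/∆ progenitors, all 3 with the *Vav*-Cre transgene. Another 17 samples of wild-type or *Rag2*−/− mice follow the way from the lymphoid-primed multipotent progenitor of the bone marrow (LMPP) through the thymic stages DN1, DN2a, DN2b, DN3a and DN3b. The ∆OP allele was made by gene targeting in embryonic stem cells and the other deletions by CRISPR in zygotes, and the labels do not say whether the 2 samples of a genotype came from separate mice, so p-values measure the spread between these samples. The ∆CRD1,2, ∆/∆ and Prd/∆ cells were sorted by an alternative gate, and all other pro-B cells by the standard pro-B gate.

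Levels are given in TPM, the share of a library's transcripts after scaling by length, and differences as log2(TPM + 0.1) fits by limma over all genes above 1 TPM in at least 1 sample, called at a Benjamini-Hochberg adjusted p under 0.05. Depth lay between 10018678 and 43784791 reads per mm10 sample, the lowest in a ∆/∆ sample of the pro-B experiments. At these depths 3 reads of *Enpep* correspond to 0.0712 TPM in *Pax5* +/+ replicate 5 and to 0.186 TPM in ∆/∆ replicate 2, and levels near these values rest on a few reads. All 12 B-lineage markers (among them *Cd79a*, *Ebf1* and *Vpreb1*) were above 1 TPM in every pro-B and progenitor sample, and their sum was 22507 to 27591 TPM in +/+ pro-B cells and 10085 to 11456 TPM in the ∆/∆ progenitors of the pro-B experiments. Plasmacytoid dendritic cell markers (12 genes) summed to 992 to 1459 TPM in these ∆/∆ progenitors and to 210 to 306 TPM in +/+ pro-B cells. Granulocyte markers (12 genes) varied between samples of 1 genotype, from 853 to 7048 TPM in +/+ and from 1120 to 16987 TPM in ∆CRD2/− cells, and their part in the results was not tested. The deposited level of *Pax5* itself is summed over the gene and does not show which exons are missing. It was 342 to 524 TPM in +/+ pro-B cells, 460.5 to 468 TPM in ∆HD/∆HD, 464 to 512 TPM in ∆CRD2/∆CRD2 and 241 to 304 TPM in ∆CRD2/− pro-B cells, and 1609 to 1697 TPM in ∆/∆ progenitors. In these bulk samples, fewer cells of a type and less RNA per cell cannot be told apart.

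The change behind the ∆CRD2 allele is shown first, because it defines genotypes against which the 10 genes were read. *Pax5* lies on the minus strand of chromosome 4 (chr4:44524748-44710694, GRCm38) and its RefSeq model has 10 exons that encode 391 residues. In the ∆CRD2 allele, the repair template replaces 3 bases at the start of exon 10 (chr4:44531570-44531572) by 7 bases, shown in capitals, which place 2 stop codons next to each other in the reading frame. The protein then ends after residue 369 and lacks its last 22 residues. The intron before exon 10 and the start of the exon are shown in lower case.
exon 10, reference: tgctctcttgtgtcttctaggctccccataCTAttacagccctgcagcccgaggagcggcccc
∆CRD2 repair template: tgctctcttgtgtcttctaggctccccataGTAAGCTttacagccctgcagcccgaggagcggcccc
sgRNA-5, PAM in capitals: tgcagggctgtaatagtatgGGG

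The 10 genes lie apart from each other in the genome. *Slc52a3* is at chr2:151996511-152009258, *Enpep* at chr3:129269177-129332749, *Cldn4* at chr5:134945123-134946934, *Hdac11* at chr6:91156670-91174692, *Col5a3* at chr9:20770050-20815117 and *Spsb4* at chr9:96943482-97018355. *Tmem132e* (chr11:82388852-82447621) and *Grb7* (chr11:98446834-98455373) share a chromosome, *Dnase1l3* is at chr14:7965187-7994760 and *Pde9a* at chr17:31386105-31476309, all in GRCm38. Their products are a peptidase, an adaptor, a collagen chain, a ubiquitin ligase adaptor, a deacetylase, a tight junction protein, a vitamin transporter, a membrane protein, a nuclease and a phosphodiesterase.

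RefSeq promoters (GRCm38.p6) were found for 6 of the 10 genes, *Enpep*, *Cldn4*, *Hdac11*, *Col5a3*, *Spsb4* and *Tmem132e*, and none was used for *Grb7*, *Slc52a3*, *Dnase1l3* and *Pde9a*. The 250 bases before the start were searched on both strands for the TATA box TATAAA, the letters GCGTGAC of the paired domain's recognition sequence, the ETS factor site ACCGGAAGT, the E box CAGGTG and the Ebf1 site CCCNNGGG, none of which contains another. Among the 6, TATAAA occurred in 1, that of *Enpep*, against 12.4% of 32851 promoters. CAGGTG and CCCNNGGG each occurred in 1, that of *Cldn4*, against 17.2% and 11.8% of all promoters. GCGTGAC and ACCGGAAGT were in none of the 6, and in 1.78% and 0.804% of all promoters. GC content ran from 52.4% in *Enpep* to 75.6% in *Tmem132e*, so none of the 6 was below the median of 52.4% over all promoters. CpG counts ran from 6 in *Enpep* to 28 in *Tmem132e*, against a median of 6. None of the 5 motifs was in more than 1 of the 6, and with so few promoters nothing is read from that. The TATAAA and CAGGTG matches are on the strand opposite to the gene and therefore read TTTATA and CACCTG. The 2 promoters that hold a match are printed with it in capitals, 5′ to 3′ on the strand of the gene (minus for both).
*Enpep*, chr3:129332750-129332999: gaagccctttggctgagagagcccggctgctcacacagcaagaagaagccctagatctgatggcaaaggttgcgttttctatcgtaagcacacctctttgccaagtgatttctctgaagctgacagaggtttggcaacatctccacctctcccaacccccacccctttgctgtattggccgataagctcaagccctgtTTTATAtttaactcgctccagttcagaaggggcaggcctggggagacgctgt
*Cldn4*, chr5:134946935-134947184: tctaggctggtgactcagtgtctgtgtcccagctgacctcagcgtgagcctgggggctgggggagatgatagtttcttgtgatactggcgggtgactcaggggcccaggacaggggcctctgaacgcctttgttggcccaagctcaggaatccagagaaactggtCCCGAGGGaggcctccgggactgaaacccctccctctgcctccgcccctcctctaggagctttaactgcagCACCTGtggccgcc

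Levels in wild-type pro-B cells spanned more than an order of magnitude. *Grb7*, an SH2 domain adaptor of receptor tyrosine kinases, was the most abundant of the 10 with 138 ± 23.6 TPM (mean ± SD, n = 5), followed by the membrane protein *Tmem132e* with 92.5 ± 13.2 TPM. The class IV histone deacetylase gene *Hdac11* (46.4 ± 8.85 TPM) and the cGMP phosphodiesterase gene *Pde9a* (38.0 ± 8.35 TPM) came next and did not differ beyond their spread. *Enpep*, the glutamyl aminopeptidase known on early B cells as BP-1, followed with 24.8 ± 4.12 TPM and *Cldn4*, a claudin of epithelial tight junctions, with 22.6 ± 5.47 TPM, within each other's spread. At the lower end were the riboflavin transporter gene *Slc52a3* (14.4 ± 2.59 TPM), the SPRY and SOCS box gene *Spsb4* (12.9 ± 1.59 TPM), the secreted DNase gene *Dnase1l3* (10.1 ± 2.15 TPM) and *Col5a3* (8.49 ± 3.49 TPM), a type V collagen chain. TPM are scaled per length, so these levels can be compared between genes.

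*Col5a3* had the largest SD relative to its mean, with 12.3 and 12.3 TPM in replicates 1 and 2 and 5.94, 6.25 and 5.65 TPM in replicates 3, 4 and 5. Replicates 1, 2 and 5 were sequenced with reads of 50 nucleotides and replicates 3 and 4 with 100, so the 2 levels do not follow read length. Summed stromal markers (12 genes) were 122 to 181 TPM over these samples, and their part in the *Col5a3* values was not tested.

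Deletion of the homeodomain left all 10 genes below every +/+ sample of the same read length, which by the choice of the genes is no result. Over all 14000 genes tested, 15.5% lay below in this way. What the values show is how unequal the loss was. *Col5a3* was at 0 and 0.155 TPM in the 2 ∆HD/∆HD samples, 1.27% of the mean of the +/+ samples with 100-nucleotide reads, and *Enpep* to 4.73 and 3.81 TPM, or 15.5%. *Dnase1l3* kept 23.8%, *Pde9a* 24.8%, *Grb7* 28.7%, *Spsb4* 29.2%, *Hdac11* 33.3% and *Tmem132e* 35.0%, while *Cldn4* (14.99 and 7.85 TPM) and *Slc52a3* (8.98 and 6.88 TPM) kept 46.4% and 52.6%. The median log2 fold change from the fit was −1.79 for the 10 genes and 0 for all genes. For the other 9 genes some RNA remained in both samples.

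Deletion of the octapeptide gave another picture in the same genes. Of the 10, 5 lay below the 2 +/+ samples of the same read length (*Col5a3*, *Hdac11*, *Cldn4*, *Slc52a3* and *Dnase1l3*), against 22% of all genes. *Enpep* (43.1 and 31.05 TPM) was at 135% and *Spsb4* (15.3 and 16.6 TPM) at 117% of the mean of these +/+ samples. *Tmem132e* (130 and 166 TPM) was at 166%, *Pde9a* (45.4 and 51.65 TPM) at 129% and *Grb7* at 107%. These differences were not tested. *Cldn4* was the gene with the lowest fraction kept, 6.89 and 8.39 TPM or 31.1% of +/+. By the means this is less than it kept without the homeodomain. The ∆HD/∆HD values of *Cldn4*, 14.99 and 7.85 TPM, overlap with these, and the difference was not tested. *Hdac11* had 26.6 and 21.25 TPM, or 52.1%. The median log2 fold change was −0.09, with members on both sides of it.

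In ∆OP,HD/∆OP,HD pro-B cells, which lack both parts, 10 of 10 were again below the +/+ samples of the same read length (17.1% of all genes) and the median log2 fold change was −2.23. The 5 genes that were below these +/+ samples without the octapeptide, and *Grb7*, had lower means in the double deletion than with the homeodomain deletion alone. *Hdac11* had 8.58 and 7.23 TPM, against 18.9 and 11.6 TPM in ∆HD/∆HD cells. *Cldn4* had 6.31 and 3.68 TPM and *Slc52a3* 4.66 and 3.12 TPM, in both cases with all values below those of the ∆HD/∆HD samples. *Enpep* (3.85 and 7.45 TPM), *Spsb4* (5.27 and 3.80 TPM), *Tmem132e* (38.0 and 32.8 TPM) and *Pde9a* (11.6 and 11.5 TPM) had higher means than in ∆HD/∆HD cells. These differences between the genotypes were not tested.

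*Dnase1l3* is also made by macrophages and dendritic cells, so its values are given with those of macrophage and plasmacytoid dendritic cell markers. The 21 macrophage markers summed to 62.0 to 154 TPM in +/+, 39.7 to 46.2 TPM in ∆HD/∆HD, 86.3 to 161 TPM in ∆OP,HD/∆OP,HD and 154 to 170 TPM in ∆OP/∆OP pro-B cells. *Dnase1l3* stood at 3.16 and 1.92 TPM in ∆HD/∆HD, 1.97 and 2.02 TPM in ∆OP,HD/∆OP,HD and 9.001 and 5.93 TPM in ∆OP/∆OP cells. Plasmacytoid dendritic cell markers summed to 210 to 306 TPM in +/+ and 277 to 353 TPM in ∆HD/∆HD cells. They summed to 302 to 362 TPM in ∆OP,HD/∆OP,HD and 377 to 459 TPM in ∆OP/∆OP cells. The part of either marker set in the *Dnase1l3* values was not tested. The number of macrophage markers above 1 TPM was 10 to 17 in +/+ and 10 to 11 in ∆HD/∆HD samples, and 0 to 1 and 1 to 4 of them were at 0.

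**Figure D1:**
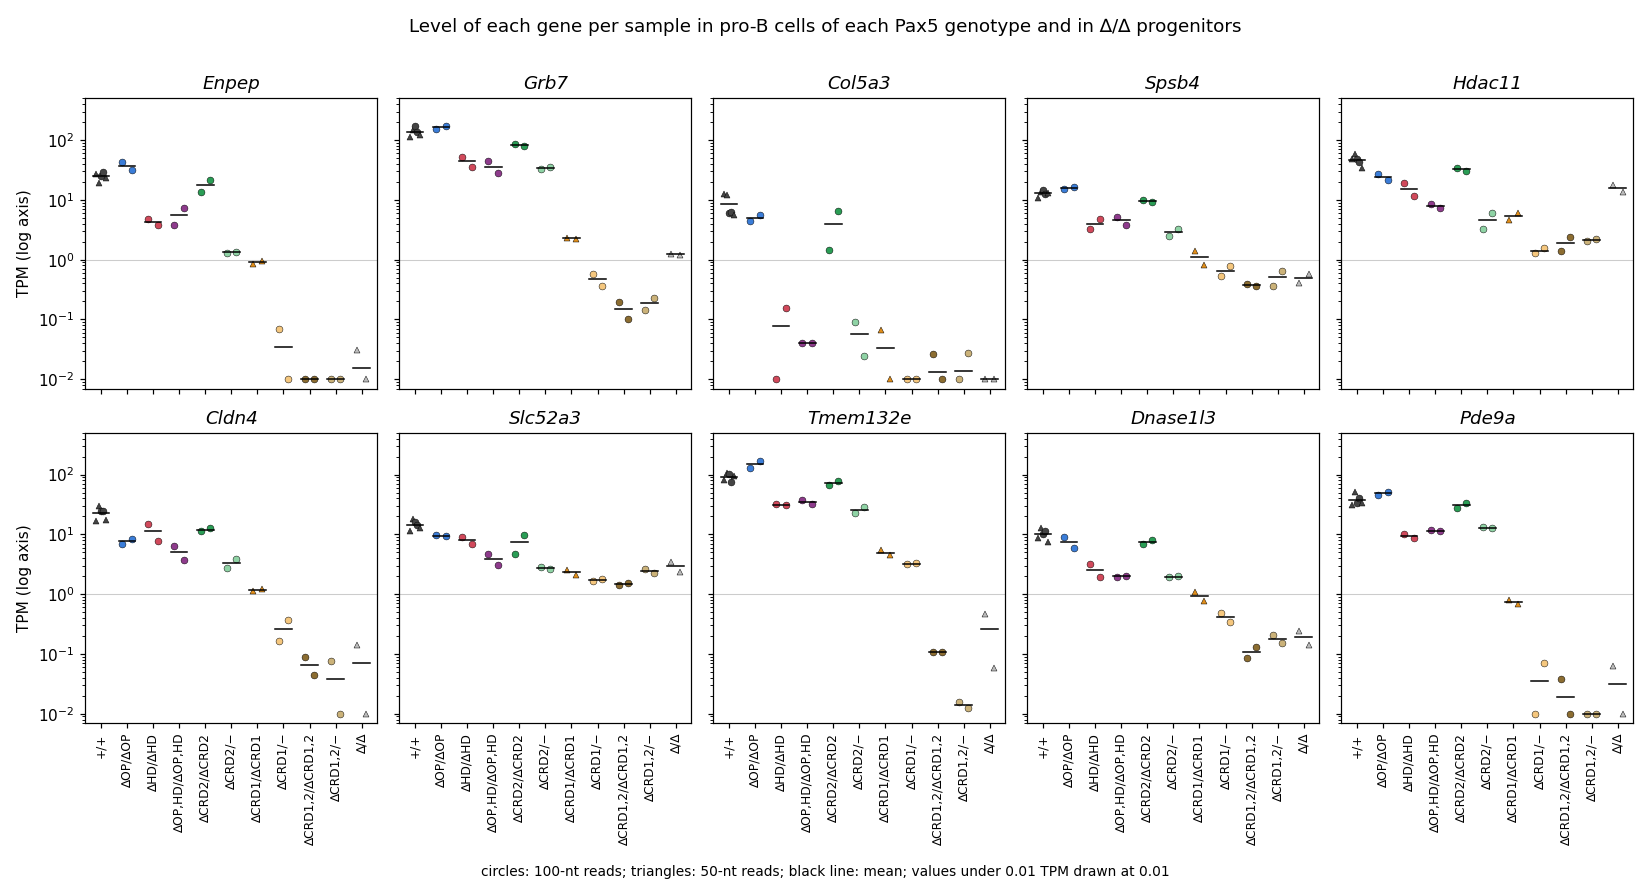
TPM (log axis) of each of the 10 genes in every sample of the pro-B experiments, by *Pax5* genotype. Points are samples (circles, 100-nucleotide reads; triangles, 50-nucleotide reads), black lines are means and values under 0.01 TPM are drawn at 0.01. Against the +/+ samples of the same read length, the ∆HD/∆HD and ∆CRD2/− samples lie below for all 10 genes and the ∆OP/∆OP samples for 5, and *Hdac11* and *Slc52a3* keep 13.4 to 17.7 and 2.36 to 3.47 TPM in ∆/∆ progenitors.

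Loss of CRD2 was read with 1 and with 2 copies of the truncated allele. In hemizygous ∆CRD2/− pro-B cells 10 of 10 genes were below every +/+ sample of the same read length (13.7% of all genes), and between 0.942% (*Col5a3*) and 34.5% (*Pde9a*) of the +/+ mean remained. In homozygous ∆CRD2/∆CRD2 cells 7 of 10 were below these 2 +/+ samples (11.9% of all genes), all but *Col5a3*, *Tmem132e* and *Pde9a*, and 48.8% to 81.6% remained. The median log2 fold changes were −2.40 and −0.60.

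For each of the 10 genes, both homozygous samples had more RNA than both hemizygous samples, as had 14.5% of all 14000 genes, with a median ratio of the means of 3.46. The genes were chosen partly for being low in ∆CRD2/− cells, so nothing is read from this count. *Pde9a* had the smallest ratio, 2.37, with 27.2 and 33.9 TPM against 13.1 and 12.7 TPM. *Grb7*, at 86.8 and 78.8 TPM against 32.3 and 34.8 TPM, differed 2.47-fold. *Hdac11* differed 7.10-fold (34.5 and 30.4 against 3.20 and 5.95 TPM) and *Enpep* 13.1-fold (13.4 and 21.5 against 1.32 and 1.34 TPM). *Col5a3* had 1.44 and 6.60 TPM with 2 copies and 0.0906 and 0.0243 TPM, from 7 and 2 reads, with 1. The ratios of *Spsb4*, *Cldn4*, *Slc52a3*, *Tmem132e* and *Dnase1l3* were between 2.66 and 3.82. *Pax5* RNA itself had a mean of 488 TPM with 2 copies and of 273 TPM with 1.

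**Figure D2:**
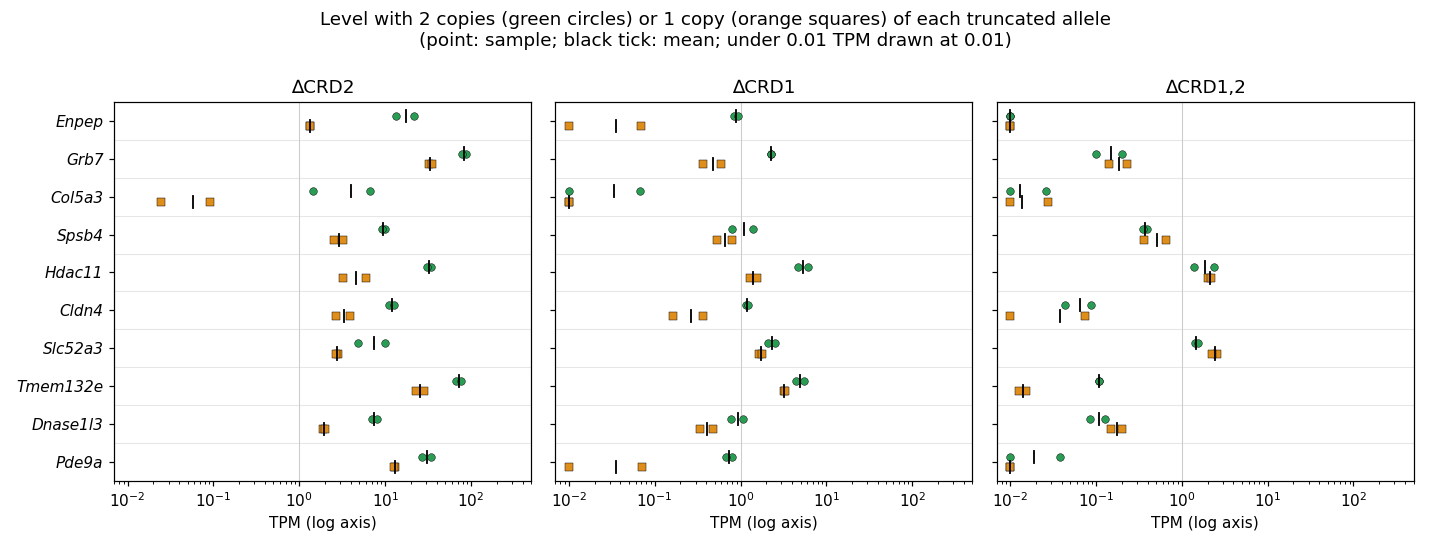
TPM (log axis) of the 10 genes with 2 copies (green circles) or 1 copy (orange squares) of the ∆CRD2, ∆CRD1 and ∆CRD1,2 alleles, 2 samples each, with black ticks at the means and values under 0.01 TPM drawn at 0.01. The homozygous samples lie to the right of the hemizygous samples for all 10 genes with ∆CRD2 (14.5% of all genes), for 9 with ∆CRD1 (40.8% of all genes, with the read lengths differing) and for 1, *Tmem132e*, with ∆CRD1,2 (20.1% of all genes).

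The CRD1 genotypes took no part in the choice of the genes and could be compared with each other by test. All 10 genes were below every +/+ sample of the same read length in ∆CRD1/− cells (26.1% of all genes) and in ∆CRD1/∆CRD1 cells (21.5%), with median log2 fold changes of −5.44 and −4.13. The median of ∆CRD1/− cells was −5.53 with *Col5a3*, which had no reads there, at its bound. These medians share the +/+ samples with the choice of the genes and are not tested. With 2 copies of ∆CRD1 instead of 1, the RNA of 3 of the 10 genes was higher in the limma test across all 14000 genes, against 0.0714% of all genes that were called higher. *Enpep* had 0.848 and 0.946 TPM in ∆CRD1/∆CRD1 cells and 0.0703 and 0 TPM in ∆CRD1/− cells, a log2 difference of 3.21 ± 0.48 (SE, limma, adjusted p = 0.0189). *Grb7* had 2.28 and 2.24 against 0.586 and 0.367 TPM (2.32 ± 0.36, limma, adjusted p = 0.0239). *Pde9a* had 0.804 and 0.675 against 0 and 0.0710 TPM (2.67 ± 0.43, limma, adjusted p = 0.0247). In these 3 genes the groups did not overlap, but all values were under 3 TPM.

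The other 7 genes did not pass. *Hdac11* had 4.62 and 6.14 TPM against 1.27 and 1.56 TPM (limma, adjusted p = 0.153) and *Cldn4* 1.15 and 1.21 against 0.163 and 0.364 TPM (limma, adjusted p = 0.38), again without overlap. *Col5a3* had 0.0679 and 0 TPM against 0 and 0 TPM. *Slc52a3* and *Tmem132e* had the smallest ratios among the genes with reads in both groups, with 2.55 and 2.09 against 1.63 and 1.80 TPM and with 5.43 and 4.44 against 3.20 and 3.27 TPM. Over the 9 genes with reads in ∆CRD1/− cells the median ratio of the means was 3.80. The ∆CRD1/∆CRD1 samples had 50-nucleotide and the ∆CRD1/− samples 100-nucleotide reads, a difference that the fit takes from the +/+ samples alone. The 3 calls were lost without either ∆CRD1/∆CRD1 replicate and without *Pax5* +/+ replicate 3, with 0 genes called in each case.

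With both C-terminal domains deleted, no difference by gene dose was detected. Between ∆CRD1,2/∆CRD1,2 and ∆CRD1,2/− cells, 0 of 10 genes passed the limma test, 2 at an unadjusted p under 0.05 and 0 in edgeR, against 0.236% of all genes called. *Enpep* had 0 reads in all 4 samples, which puts it at least 484-fold (homozygous) and 565-fold (hemizygous) below +/+ if 3 reads per library are taken as the floor. *Pde9a* had 0.0386 and 0 TPM in homozygous and no reads in hemizygous cells. *Hdac11* (1.41 and 2.37 against 2.03 and 2.19 TPM) and *Slc52a3* (1.41 and 1.56 against 2.60 and 2.24 TPM) were the only members above 1 TPM. *Tmem132e* was at 0.108 and 0.109 TPM against 0.0155 and 0.01265 TPM, that is 6 and 6 against 1 and 1 reads. All 10 were below +/+ in both genotypes (32.8% and 31% of all genes), with medians of −6.51 and −6.66.

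Whether the dose effect differed between the ∆CRD1 and ∆CRD1,2 alleles was tested as an interaction. No member passed (0 of 10, against 0.0286% of all genes). An unadjusted p under 0.05 was found for 7, but the share of all genes at that limit is not given, so nothing is read from it. *Enpep* and *Grb7* came nearest, with differences of 3.21 ± 0.60 and 2.54 ± 0.45 on the log2 scale (limma, adjusted p = 0.0699 for both). *Enpep* had no reads in any ∆CRD1,2 sample, so its value repeats its ∆CRD1 dose difference. *Grb7* had between 3 and 10 reads in the ∆CRD1,2 samples. For genes this near the floor, the ∆CRD1,2 samples can hardly show a fall with 1 copy.

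Deleting CRD2 from an allele that already lacks CRD1 lowered 2 of the 10 genes, against 3.57% of all genes called lower. *Tmem132e* fell by 4.87 ± 0.37 on the log2 scale (limma, adjusted p = 7.67e-07), from 3.20 and 3.27 TPM in ∆CRD1/− to 0.0155 and 0.01265 TPM in ∆CRD1,2/− pro-B cells. Both ∆CRD1,2/− values rest on 1 read each. *Grb7* fell by 0.99 ± 0.27 (limma, adjusted p = 0.0412), from 0.586 and 0.367 to 0.143 and 0.233 TPM, a call that edgeR did not make and that was lost without ∆CRD1,2/− replicate 1 or without either ∆CRD1/− replicate. *Cldn4* (0.163 and 0.364 against 0.0756 and 0 TPM; limma, adjusted p = 0.0985) and the other 7 genes did not pass. The 2 groups were sorted by different gates, and the gate and the genotype cannot be told apart.

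∆CRD1,2/− pro-B cells were also set against *Pax5* ∆/∆ progenitors, which were sorted by the same gate but sequenced with the other read length. *Grb7* and *Hdac11* were lower with the truncated protein than with none, 2 of 10 genes against 3.23% of all genes called lower. *Hdac11* had 2.03 and 2.19 TPM against 17.7 and 13.4 TPM (−2.82 ± 0.44, limma, adjusted p = 0.000967), and the groups did not overlap. *Grb7* had 0.143 and 0.233 against 1.245 and 1.199 TPM (−2.47 ± 0.36, limma, adjusted p = 0.000595). For the remaining 8 genes the levels of both groups were low, from 0 to 3.47 TPM. Against the +/+ samples all 10 genes were below in ∆/∆ progenitors (23.9% of all genes) with a median of −6.59, or −6.45 with *Col5a3* at its bound, and *Hdac11* was the member that kept most, with a log2 fold change of −1.56 ± 0.29.

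The Prd experiment provided samples that the choice of the genes had not used. In *Pax5* +/∆ pro-B cells, 9 of the 10 genes were above 1 TPM in at least 1 sample and entered the test against ∆/∆ progenitors. Of these, *Grb7*, *Slc52a3* and *Hdac11* were above 1 TPM also in progenitors. The other 6 passed this limit through the +/∆ samples alone, which favours a call. Nothing is therefore read from the number of calls or from the calls of these 6, whose values are given without a p-value. All 9 were called, against 39.9% of all 12941 genes, with 8 higher (19.1% of all genes) and 1 lower (20.8%). Without the limit all 10 were tested, and 8 were called higher and 1 lower, with 5069 of 18936 genes called in either direction. *Pde9a* had 20.5 and 17.2 TPM in +/∆ cells and 0.0260 and 0 TPM in ∆/∆ cells, a log2 difference of 7.39 ± 0.48. *Grb7* had 115 and 78.3 TPM against 1.23 and 1.35 TPM (6.09 ± 0.30, limma, adjusted p = 4.65e-05). *Tmem132e* had 45.4 and 44.3 against 0.487 and 0.760 TPM (5.98 ± 0.76) and *Cldn4* 14.8 and 12.1 against 0.267 and 0.182 TPM (5.39 ± 0.36).

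The remaining members of this experiment stood lower. *Enpep* had 3.91 and 1.21 TPM in +/∆ cells and 0 and 0.0131 TPM in ∆/∆ cells. *Dnase1l3* had 2.68 and 2.38 against 0 and 0.134 TPM, *Spsb4* 7.09 and 5.89 against 0.674 and 0.321 TPM and *Slc52a3* 8.91 and 8.75 against 2.86 and 2.37 TPM. *Hdac11* was the gene that went the other way, with 10.7 and 10.6 TPM in +/∆ and 14.8 and 14.5 TPM in ∆/∆ cells (−0.45 ± 0.11, limma, adjusted p = 0.0185), a call lost when any 1 sample was left out. *Col5a3* was not tested, because it stayed at or under 0.0558 TPM in all 6 samples. B-lineage markers summed to 22504 to 22965 TPM in +/∆ and 10272 to 10899 TPM in ∆/∆ cells, and plasmacytoid dendritic cell markers to 258 to 262 TPM in +/∆, 571 to 610 TPM in Prd/∆ and 558 to 696 TPM in ∆/∆ cells, and their part in these differences was not tested. Macrophage markers summed to 54.1 to 76.5 TPM in +/∆ and 42.9 to 55.5 TPM in ∆/∆ cells, and their part in the *Dnase1l3* difference was not tested. The +/∆ pro-B cells and the ∆/∆ progenitors were sorted by different gates, so genotype and cell type cannot be told apart in this comparison.

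With the paired domain alone, no difference from cells without Pax5 was detected for these genes. Between Prd/∆ and ∆/∆ progenitors, which share a gate, 0 of 9 genes passed the limma test, 0 had an unadjusted p under 0.05 and 0 passed in edgeR, against 1.97% of all genes. *Grb7* had 1.48 and 0.834 TPM against 1.23 and 1.35 TPM, a log2 difference of −0.20 ± 0.30. *Pde9a* had 0.0779 and 0 TPM, *Enpep* no reads in either Prd/∆ sample and *Cldn4* 0.133 and 0.189 TPM. *Hdac11* was 12.2 and 12.7 TPM, and *Slc52a3* 1.51 and 2.29 TPM. *Tmem132e* differed between the Prd/∆ samples, with 0.874 TPM from 48 reads and 0.0647 TPM from 5 reads, and was called lower without Prd/∆ replicate 1. Against Prd/∆ progenitors, 8 of 9 genes were called higher in +/∆ pro-B cells, against 16.6% of all genes. The same 6 members passed the 1 TPM limit through +/∆ samples alone, so nothing is read from this count. In the fit with the limit the log2 differences were between 2.19 ± 0.25 (*Slc52a3*) and 7.15 ± 0.48 (*Pde9a*). *Enpep*, without reads in Prd/∆ cells, was at least 44.7-fold higher in +/∆ cells, and *Hdac11* did not pass (limma, adjusted p = 0.151).

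**Figure D3:**
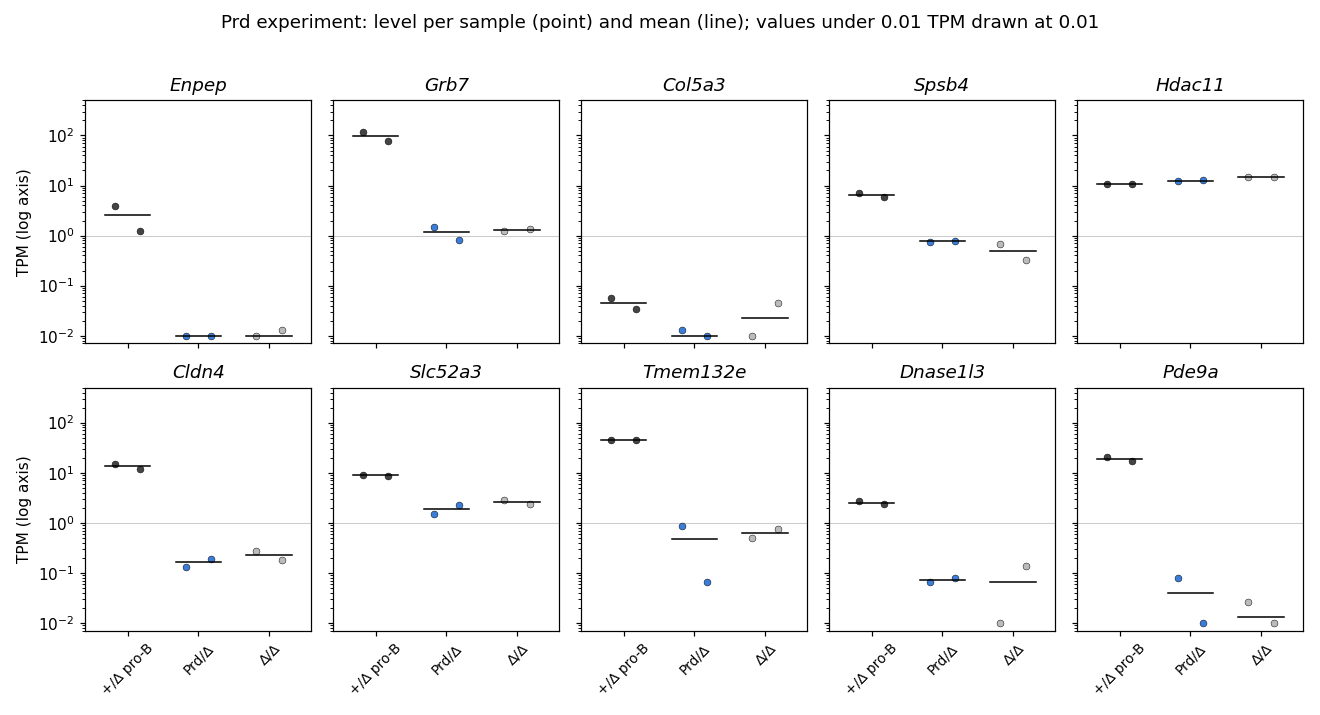
TPM (log axis) of the 10 genes in the 2 samples each of *Pax5* +/∆ pro-B cells, *Pax5* Prd/∆ progenitors and *Pax5* ∆/∆ progenitors of the Prd experiment, with means as lines and values under 0.01 TPM drawn at 0.01. *Grb7* is at 115 and 78.3 TPM in +/∆ samples and between 0.834 and 1.48 TPM in the progenitor samples. *Hdac11* lies between 10.6 and 14.8 TPM in all 6 samples, and *Col5a3* is at or under 0.0558 TPM in all 6.

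The +/∆ pro-B cells carry 1 copy of intact *Pax5* and may be read beside the +/+ cells, although they come from another experiment and carry *Vav*-Cre. Their level was below every +/+ sample for 9 of the 10 genes, all but *Grb7*, and for 16.3% of all genes. The genes were chosen against these same +/+ samples, so nothing is read from this count. *Slc52a3*, *Cldn4*, *Pde9a*, *Tmem132e* and *Spsb4* were at 47.5% to 58.6% of the +/+ mean, *Dnase1l3* and *Hdac11* at 23.7% and 23.2%, *Enpep* at 9.29% and *Col5a3* at 0.740%. *Enpep* and *Col5a3* were also the 2 genes that kept the lowest percent of the +/+ mean in ∆HD/∆HD and ∆CRD2/− cells. Those 2 genotypes were used in the choice of the genes. *Pax5* RNA, summed over the gene whichever exons are missing, was 620 and 618 TPM in +/∆ cells and 342 to 524 TPM in +/+ cells. Its part in these levels was not tested.

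The mm9 tables of LMPPs and early T cell stages show where these genes are active outside the B cell lineage. They hold 2 rows per gene under the name TPM, which together sum to about 2 times what TPM sum to, and the mean of the 2 rows was used. The values are printed as TPM as the tables name them, but their scale is not certain and they are not set against those of pro-B cells. *Enpep*, *Col5a3*, *Tmem132e* and *Pde9a* stayed at or under 1 TPM in all 17 samples and were not tested. *Pde9a* was nearest, with 0.582 and 0.579 TPM in LMPPs. The other 6 genes were tested, and each had its own course.

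*Hdac11* was the highest of the 10 in LMPPs, with 29.1 and 29.6 TPM. It fell to 19.8, 18.2 and 18.45 TPM in DN1 cells (−0.64 ± 0.17, limma, adjusted p = 0.0181, lost without either LMPP sample), was 3.46 to 6.90 TPM in DN2a and DN2b cells, 23.0 and 23.4 TPM in DN3a cells and 3.85 and 3.10 TPM in DN3b cells. *Cldn4* fell from 7.33 and 6.03 TPM in LMPPs to 0.0862 to 0.327 TPM in DN1 cells (−4.71 ± 0.59, limma, adjusted p = 5.48e-05). These 2 were the genes of the 6 called lower in DN1 cells, against 11.9% of all 13482 genes.

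In DN3a cells 4 of the 6 genes differed from LMPPs, against 53.8% of all genes, 2 in each direction, so the share is near that of all genes. *Cldn4* had 55.3 and 56.3 TPM (3.05 ± 0.65, limma, adjusted p = 0.00123). *Grb7* rose by 3.46 ± 0.41 from 0.0470 and 0.134 TPM to 2.06 and 1.825 TPM (limma, adjusted p = 7.04e-06). *Spsb4* fell by 6.31 ± 0.53, from 7.77 and 11.2 TPM to 0 and 0.0419 TPM (limma, adjusted p = 2.33e-07), and had 4.502 and 5.35 TPM in DN3b cells. *Slc52a3* fell by 3.28 ± 0.50, from 1.94 and 2.12 TPM to 0.0770 and 0.169 TPM (limma, adjusted p = 8.3e-05). The median log2 difference over all genes was 0.1252 in this comparison. *Dnase1l3* was uneven among DN1 samples, with 0.736, 0.127 and 2.00 TPM.

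*Rag2*−/− DN3a cells, which cannot rearrange their T cell receptor genes, were compared with wild-type DN3a cells. Of the 6 genes 0 passed (limma), 1 had an unadjusted p under 0.05, and 26.4% of all genes were called. That gene was *Cldn4*, with 190 and 189 TPM against 55.3 and 56.3 TPM (1.76 ± 0.65, limma, adjusted p = 0.0593). Its 2 groups did not overlap, and the median of all genes was shifted by −0.1801 in this comparison.

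**Figure D4:**
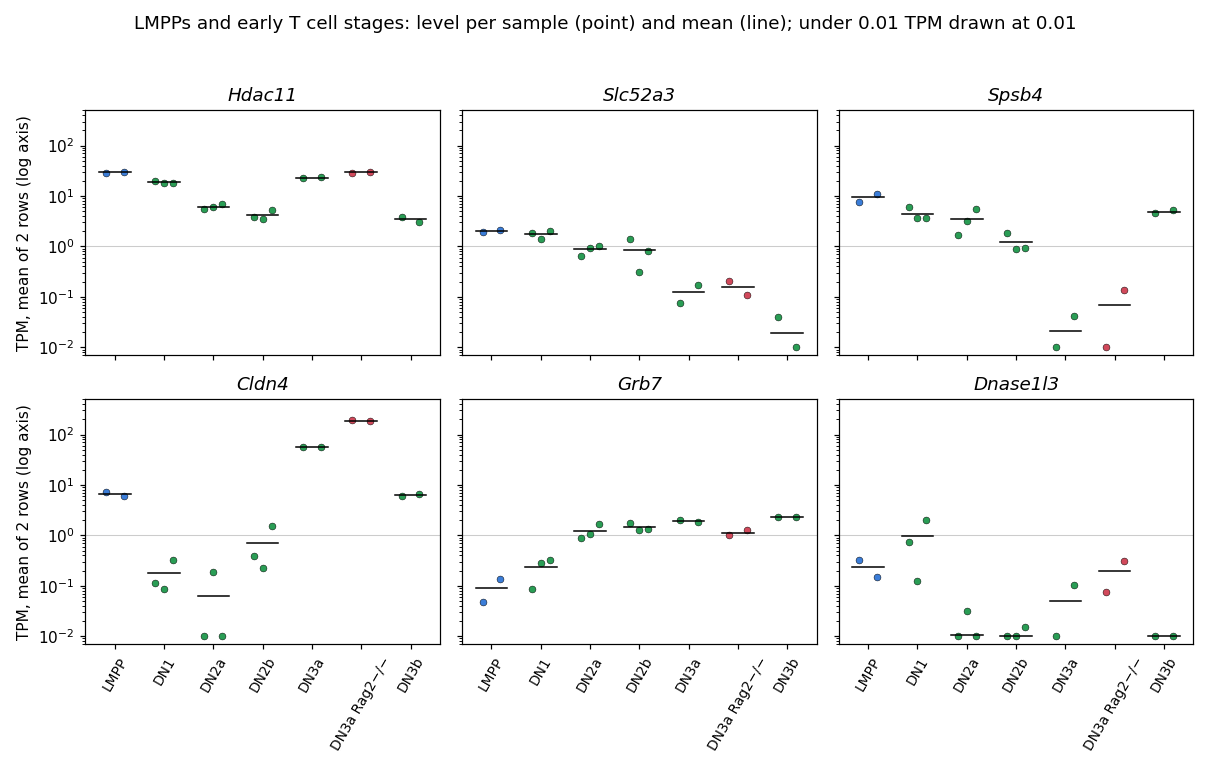
TPM (log axis, mean of the 2 deposited rows) of the 6 genes above 1 TPM in at least 1 lymphoid sample, from LMPPs to DN3b cells, with samples as points, means as lines and values under 0.01 TPM drawn at 0.01. *Cldn4* is at 55.3 and 56.3 TPM in DN3a and 190 and 189 TPM in *Rag2*−/− DN3a cells but at most 0.327 TPM in DN1 cells, and *Spsb4* is at 0 and 0.0419 TPM in DN3a cells between higher stages.

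How alike the 10 genes were over the 25 samples of the pro-B experiments was described by correlating each gene's log2(TPM + 0.1) with the mean of the other 9. Pearson's r was highest for *Dnase1l3* (0.986), *Spsb4* (0.981) and *Enpep* (0.9801) and lowest for *Col5a3* (0.837) and *Hdac11* (0.852). The samples share their genotypes in pairs and the genes were chosen for a common pattern, so these values describe and do not test. Among 9845 other genes with a mean above 5 TPM in +/+ pro-B cells, the 8 whose pattern was most like the mean of the 10 were *Map7*, *Rab3ip*, *D030045P18Rik*, *Lxn*, *Slc11a2*, *Dgcr6*, *Natd1* and *Rapgefl1*, with r from 0.978 down to 0.958. *D030045P18Rik* was the nearest of these in size of loss, with means of 5.26 TPM in +/+, 1.38 TPM in ∆HD/∆HD, 1.32 TPM in ∆CRD2/− and 0 TPM in ∆CRD1/− cells. *Map7* kept more, with 92.4, 52.6, 38.4 and 17.8 TPM in the same order.

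The nearest relatives of the 10 genes were looked at in some of the same comparisons. Of 75 paralogs, 36 were tested in the Prd experiment, of which 13 were higher and 5 lower in +/∆ pro-B cells than in ∆/∆ progenitors. That is 50% called, against 39.9% of all genes. Their median log2 difference was 0.12. It is not set against that of the members, which were chosen as Pax5-activated and mostly passed the 1 TPM limit through +/∆ samples alone. Among the paralogs *Hdac5*, *Hdac8*, *Hdac7* and *Hdac6* were higher in +/∆ cells, unlike *Hdac11*, and *Hdac9* was lower. The largest rise was 2.18 and the largest fall was −1.51 on the log2 scale. Between Prd/∆ and ∆/∆ progenitors 1 of 36, *Pde2a*, was called (higher), against 1.97% of all genes called in either direction. Between ∆CRD1/∆CRD1 and ∆CRD1/− cells 0 of 45 tested paralogs were called. In ∆CRD1,2/− against ∆CRD1/− cells 4 of 45 were lower (*Pde10a*, *Pde4d*, *Pde5a* and *Pde2a*), against 3.57% of all genes, and 1, *Anpep*, was higher. In DN3a cells against LMPPs 16 of 36 were higher and 12 lower, or 77.8% called, against 53.8% of all genes. Of the 20 claudin genes other than *Cldn4* that were found, 3 were above 1 TPM in +/+ pro-B cells and 1, *Cldn13*, above 5 TPM. Of the collagen relatives of *Col5a3*, 0 of 2 reached 1 TPM.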

How the data were processed

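Poly(A) RNA of 48 samples was used: 25 of the pro-B experiments, 6 of the Prd experiment and 17 of lymphoid stages. The authors aligned reads to mm10 with STAR 2.4.2a (lymphoid samples: TopHat 1.4.1, mm9), and deposited TPM per RefSeq gene, with counts for 2 samples. From the deposited counts gene lengths were derived, and with them the reads of the other mm10 samples were recovered from their TPM (100% whole within 0.01) for depth and edgeR. Genes without reads in both count columns have no length and no recovered reads. The lymphoid TPM were deposited as 2 rows per gene and were treated as a score of uncertain scale. A value of exactly 1 there marks no reads and was set to 0, and the rows were averaged. ATAC-seq and ChIP-seq samples were not analysed here, and 1 marker gene and the sequence of 1 *Pax5* deletion are not reported here.

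The 10 members, gene lists and tests were chosen with earlier results of these data known. Genes above 1 TPM in at least 1 sample were fitted by limma 3.58.1 (R 4.3.3) on log2(TPM + 0.1) with genotype groups, read length as a term in the pro-B experiments, and a trended prior. Fitted differences of genes near 0 reads depend on the pseudocount, and bounds use 3 reads per library, which cover counting error only. Named genes are the members, plus the 8 most alike by Pearson's r. Alternatives were other pseudocounts, filters, scalings, sample sets, edgeR 4.0.16, a replicate block and leaving out each replicate. The fits were tested on simulated data. Replicate numbers did not pair samples (r of deviations between −0.111 and 0.069 over 5 pairs of groups).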

Additional observations from a re-analysis of the deposited data

How the results depend on the processing

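The number of the 10 genes called was recomputed under each alternative. With 2 samples per genotype, leaving out 1 library decides several calls. The ∆CRD1 dose call was the least stable: 3 genes became 0 with a pseudocount of 0.01 or 1 and with only the compared groups and +/+ in the fit, and 0 to 3 when a replicate was left out. For ∆CRD1,2/− against ∆CRD1/−, 2 became 1 (*Grb7* lost) with a pseudocount of 1, without the low-value filter, with samples shifted to a common median, without the trend, with only the compared groups, and in edgeR, and 1 to 2 when a replicate was left out. Against the ∆/∆ progenitors of the Prd experiment, 4 genes instead of 2 were lower in ∆CRD1,2/− cells (*Cldn4* and *Tmem132e* added), and 2 to 3 when a replicate was left out. The interaction gave 1 call (*Enpep*) without the trend and 3 without the read length term, and 0 to 1 when a replicate was left out. Prd/∆ against ∆/∆ gave 0 to 1 (*Tmem132e*, without Prd/∆ replicate 1), DN1 against LMPP 1 to 3, and *Rag2*−/− against wild-type DN3a 1 with a pseudocount of 1, 1 with the lower of the 2 rows and 2 with samples shifted (*Hdac11* and *Cldn4*). The ∆OP median, −0.09, was 0.028 without ∆OP replicate 1 and −0.11 without ∆OP replicate 2. The cause of these changes was not tested. +/∆ against ∆/∆ kept 8 to 8 and against Prd/∆ 8 to 8 calls when a replicate was left out. With a replicate block the counts were 9, 0, 8, 0 and 2, as without it. No paired analysis was possible for the lymphoid samples because their replicate numbers repeat within a stage. Values of a few reads limit every statement under about 0.1 TPM.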
